A study of Mus musculus with 10 samples.

Results

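The 10 genes described here are the keratins Krt7, Krt8, Krt18 and Krt19 together with Cldn4, Sfn, Lgals3, Cdkn1a, Itgb6 and Sprr1a, which mark the state that alveolar type II (AT2) cells pass through on their way to alveolar type I (AT1) cells. They were chosen by name, and all 10 were found among the 16154 Ensembl gene IDs of the deposited table. The table holds messenger RNA levels of AT2 cells sorted from mouse lungs, and 12946 of its genes reached at least 1 normalized count per M (M for mega, of a mean library total) in at least 5 libraries. All 10 genes passed that filter. Sprr1a did so in 6 libraries only, namely all 5 wild type libraries and knockout 4, and thus through the group in which it was higher.

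AT2 cells make surfactant and also serve as stem cells of the alveolus. After lung injury some of them lose surfactant gene expression, flatten and become the thin AT1 cells across which gas is exchanged, and in mouse injury models they go through a transitional state with raised keratin 8, p53 target genes and TGF-beta signalling. Keratins are the intermediate filament proteins of epithelial cells: a type I keratin such as keratin 18 or 19 pairs with a type II keratin such as keratin 7 or 8, and keratins 8 and 18 are the usual pair of simple epithelia. HOIL-1L, encoded by Rbck1, is a subunit of the linear ubiquitin chain assembly complex, which modifies proteins of the NF-kappaB pathway.

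The HOIL-1L knockout group had 5 libraries (knockout 1 to 5) and the wild type group had 5 (wild type 2 to 6), each titled with a mouse number of its own, from C57BL/6 mice aged 8 to 10 weeks without a stated treatment. The genotype label of the knockout samples is HOIL-1L -/-, while the design text names a floxed HOIL-1L allele with Cre driven by the promoter of surfactant protein C (CreSPC/HOIL-1Lfl/fl); a deletion of that kind would be limited to cells that use this promoter. The labels do not say whether the wild type mice carried Cre. The mouse numbers fall into 2 runs, the first with knockout 1 to 3 and wild type 2 and 3, the second with knockout 4 and 5 and wild type 4 to 6, and the labels do not call these batches.

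The targeted gene went against the label in 2 libraries. Rbck1 stood at 59.3 normalized counts per M in the library labelled knockout 1 and at 29.8 to 38.8 in knockout 2 to 5, against 29.7 in the library labelled wild type 2 and 56.1 to 57.8 in wild type 3 to 6. Its mean log2 level differed by -0.34 between the groups as labelled (exact permutation test, two-sided, p = 0.206) and by -0.67 without these 2 libraries. The second difference is given without a p-value, since the 2 libraries were set apart by their Rbck1 values and leaving them out separates the groups. These libraries keep the names of their labels, and the fold changes of the 10 genes are given for the 10 libraries as labelled and for the 8 libraries without knockout 1 and wild type 2. Correlations, likeness and the comparison of runs use all 10 libraries. Library totals were 6.94 to 7.43 M, and the lowest values put the depth near 7.69 to 13.2 M reads. Sftpc, the defining AT2 gene, stood at 110900 to 138800 in knockout and 110500 to 147900 in wild type libraries. By Xist and the Y-linked Ddx3y, 3 libraries came from female mice (knockout 2 and 3 and wild type 2).

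The start regions of the 2 genes with the largest knockout minus wild type differences are shown first, because both hold the same short motif while their fold changes had opposite signs. Each run is the 250 bases before the RefSeq start (RefSeq, GRCm38.p6), read 5′ to 3′ on the minus strand, for Sprr1a chr3:92485882-92486131 and for Cldn4 chr5:134946935-134947184. Capitals mark matches to the AP-1 motif TGANTCA, to the TATA box TATAAA and to the GC box GGGCGG, searched on both strands.
Sprr1a: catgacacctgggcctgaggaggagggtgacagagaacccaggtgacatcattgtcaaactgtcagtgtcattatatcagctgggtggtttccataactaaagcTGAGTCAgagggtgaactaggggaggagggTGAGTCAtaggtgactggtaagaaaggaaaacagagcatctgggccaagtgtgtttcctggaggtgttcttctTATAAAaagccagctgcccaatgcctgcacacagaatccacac
Cldn4: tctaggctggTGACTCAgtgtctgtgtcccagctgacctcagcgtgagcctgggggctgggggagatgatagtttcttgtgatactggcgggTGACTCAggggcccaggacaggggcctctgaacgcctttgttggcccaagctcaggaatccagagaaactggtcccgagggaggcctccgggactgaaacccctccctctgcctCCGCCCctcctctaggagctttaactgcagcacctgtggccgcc
In Sprr1a the AP-1 letters begin 146 and 116 bases before the start and TATAAA begins 43 bases before it. In Cldn4 the AP-1 letters begin 240 and 158 bases before the start, and a GC box in reverse orientation begins 44 bases before it. Of 32851 RefSeq start regions of this length, 6.75% held TGANTCA, 12.4% TATAAA and 32.7% GGGCGG. A TEAD motif, GGAATG, present in 12.6% of them, was not found in the windows of any of the 9 genes with an entry. Krt7 held 4 GC boxes, Lgals3 held 1 and the second start of Cdkn1a held 2, while the windows of Krt8, Krt18, Sfn and Itgb6 held none of the 4 motifs. These matches describe letters only.

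Before any comparison, the genes covered a wide range of levels. Per kb of the principal transcript the mean over the 10 libraries was 129 normalized counts per M for Krt8 and 109 for Krt18, then 39.0 for Krt19, 25.9 for Lgals3 and 25.5 for Krt7. Sfn followed at 16.4 and Cdkn1a at 15.3 per kb, and the lowest were Itgb6 at 2.94, Cldn4 at 2.73 and Sprr1a at 2.12. In this order the library ranges of neighbouring genes overlapped, except between Krt18 and Krt19 and between Cdkn1a and Itgb6. Krt8 was nevertheless above Krt18 in each library, with a per-kb ratio of 1.19 ± 0.07 in knockout and 1.19 ± 0.10 in wild type libraries (SD, n = 5 each; a ratio computed after the values were seen). Levels without division by length varied least between libraries for Krt7, with a coefficient of variation of 10.1%, and most for Cldn4 (41.1%) and Sprr1a (79.7%).

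With the 10 libraries as labelled, none of the 10 genes differed between knockout and wild type beyond the spread between libraries (limma, adjusted p under 0.05), and neither did any other gene (0% of 12946). Krt18, Krt8, Lgals3 and Sprr1a, all lower in knockout, were below an unadjusted p of 0.05, as were 3.28% of all genes in that direction and 9.48% in either. Without knockout 1 and wild type 2, Sprr1a was past the adjusted threshold as lower in knockout, as were 0.116% of all genes, and 0.402% were past it in either direction. Sprr1a entered the test through the wild type group, and without a filter on low genes it did not pass (limma adjusted p = 0.212), so its call is given as a value only. At an unadjusted p under 0.05 the same 4 genes were lower there, as were 5.25% of all genes, and 13.1% of all genes differed in either direction. The log2 fold change was below 0 for 9 of the 10 genes as labelled (median -0.15), where 48.7% of all genes were lower (median 0.01), and for 7 of 10 (median -0.13) in the 8 libraries, where 49.9% were. In bulk RNA of sorted cells, fewer cells with a transcript and less of it per cell cannot be told apart.

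**Figure D1:**
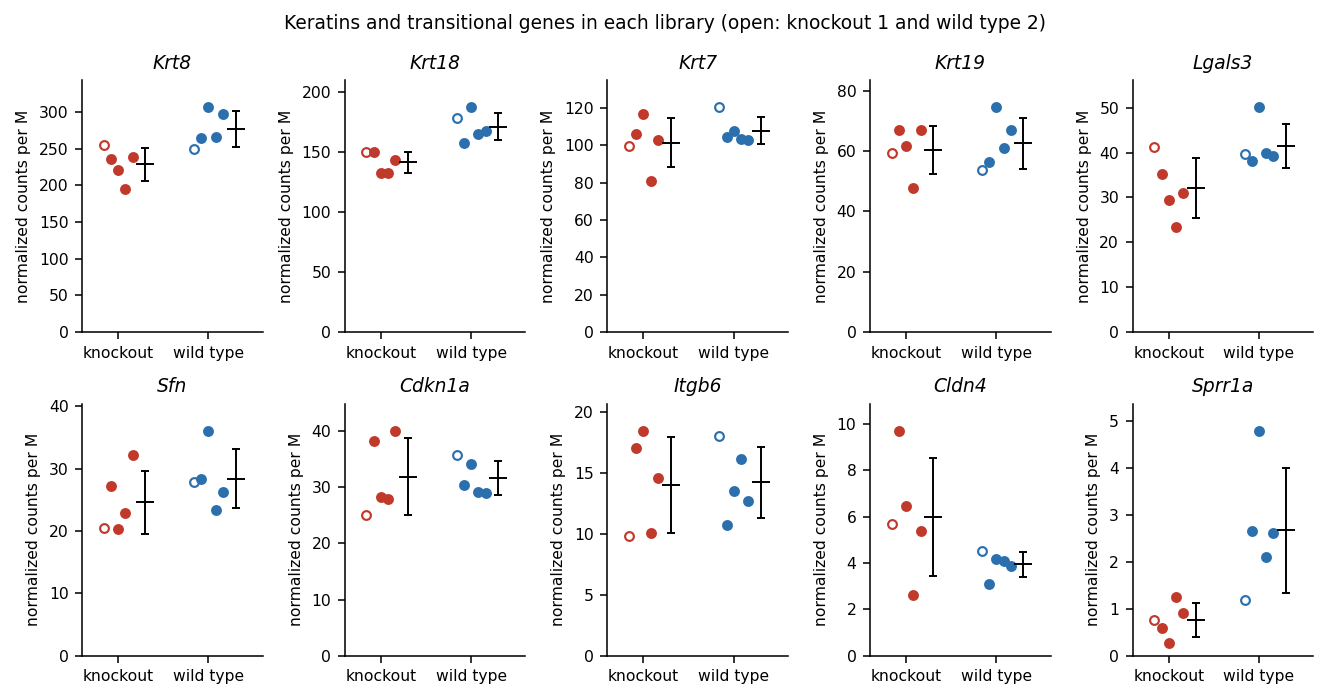
Normalized counts per M of the 10 genes in each library, knockout (red) left of wild type (blue), with open circles for knockout 1 and wild type 2 and a bar for the mean ± SD (n = 5 each). The groups are separate for Krt18, nearly so for Krt8 and Sprr1a, and overlap widely for Krt7, Krt19, Sfn, Cdkn1a and Itgb6.

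Krt8, the main type II keratin of these cells, lies on chromosome 15 (mm10, 101996698 to 102004482, minus strand, ENSMUSG00000049382). It stood at 254, 236, 221, 195 and 238 normalized counts per M in knockout 1 to 5, against 249, 264, 306, 266 and 298 in wild type 2 to 6. Only the libraries labelled knockout 1 and wild type 2 crossed, so that the groups overlapped with them and not without them. The means were 229 ± 22.5 in knockout and 277 ± 24.2 in wild type (SD, n = 5 each), a log2 fold change of -0.27 ± 0.08 (SE; 95% interval -0.44 to -0.11; limma adjusted p = 0.314). Without knockout 1 and wild type 2 they were 223 ± 20.2 in knockout and 284 ± 21.6 in wild type (SD, n = 4 each), a difference of -0.35 ± 0.08 (SE) on the log2 scale that did not pass either (limma adjusted p = 0.0715).

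Krt18, the type I partner of keratin 8, lies on the same chromosome at 102028180 to 102032027 on the plus strand (ENSMUSG00000023043), 23697 bases from Krt8 and pointing away from it. Its values were 150, 150, 132, 133 and 143 normalized counts per M in knockout 1 to 5, against 178, 158, 187.2, 165 and 168 in wild type 2 to 6. Every knockout library was below every wild type library, a separation that 0.633% of all genes showed in this direction and 1.59% in either, and Krt18 alone of the 10 genes did so. The means were 142 ± 8.66 in knockout and 171 ± 11.5 in wild type (SD, n = 5 each), with a log2 fold change of -0.27 ± 0.07 (SE; 95% interval -0.41 to -0.13; limma adjusted p = 0.314). Without knockout 1 and wild type 2 it was -0.28 ± 0.08 (SE; limma adjusted p = 0.135). There Krt8, Krt18, Lgals3 and Sprr1a had groups without overlap, as did 2.87% of all genes in this direction and 6.71% in either.

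The other 2 keratins did not show such a difference. Krt7, a type II keratin of ducts and airways (chromosome 15, 101411043 to 101430313, plus strand, ENSMUSG00000023039), ranged from 80.8 to 117 normalized counts per M in knockout and from 103 to 120 in wild type. Its log2 fold change was -0.10 ± 0.09 (SE; 95% interval -0.28 to 0.09; limma adjusted p = 0.741). Krt19, a type I keratin of simple and ductal epithelia (chromosome 11, 100140810 to 100148665, minus strand, ENSMUSG00000020911), ranged from 47.6 to 66.9 in knockout and from 53.6 to 74.5 in wild type. Its log2 fold change was -0.05 ± 0.10 (SE; 95% interval -0.27 to 0.17; limma adjusted p = 0.898). Over the 8 libraries Krt7 had a log2 fold change of -0.05 (limma adjusted p = 0.852) and Krt19 of -0.10 (0.748). The groups overlapped for both genes, with knockout 1, 4 and 5 below every wild type library for Krt7 and knockout 4 alone for Krt19. Whether the keratins differed from each other in their response was not tested. Krt8 shares 101 exon bases with an antisense gene model, Krt7 shares 77 and Cdkn1a 273, and the strand setting of the counting is not given in the sources used here. Processed copies of keratin genes lie elsewhere in the mouse genome, and how reads shared with them were counted is not given either.

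**Figure D2:**
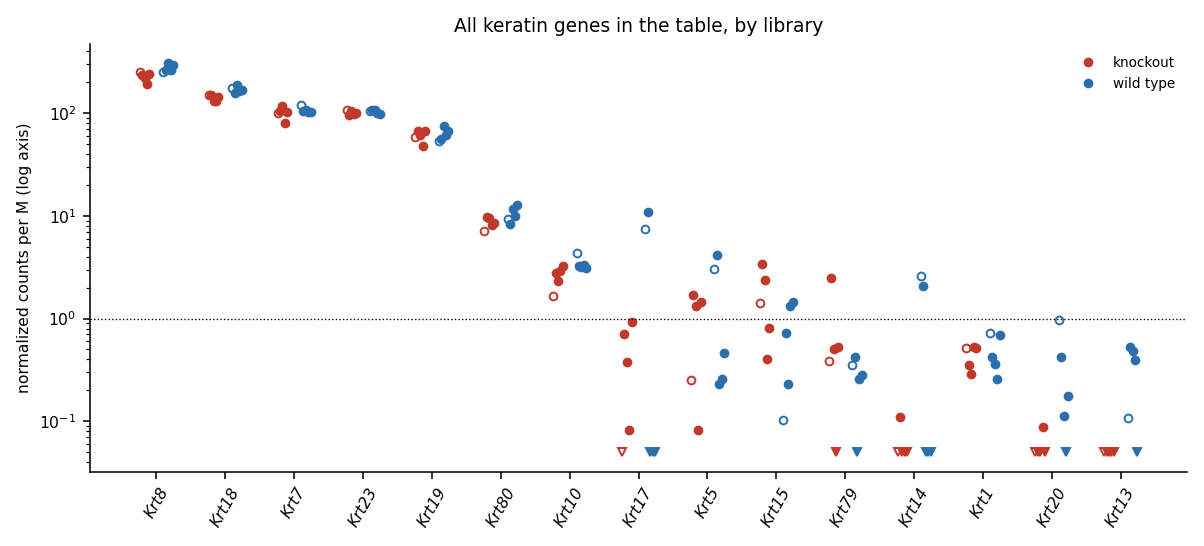
Normalized counts per M (log axis) of the 15 keratin genes with a row in the table, knockout (red) left of wild type (blue), with open symbols for knockout 1 and wild type 2 and triangles for libraries listed at 0. Krt8, Krt18, Krt7, Krt23 and Krt19 stand far above the others, and the dotted line marks 1 normalized count per M.

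Among all 15 keratin genes with a row, 9 were tested: 8 had a log2 fold change below 0 and 1 above, and none passed. Krt23, a type I keratin, was as abundant as Krt7, at 95.9 to 108 normalized counts per M in knockout and 98.8 to 108 in wild type (log2 fold change -0.03, limma adjusted p = 0.882). Krt80 averaged 8.63 ± 1.11 in knockout and 10.4 ± 1.81 in wild type, and Krt10 averaged 2.57 ± 0.599 in knockout and 3.43 ± 0.497 in wild type (SD, n = 5 each). The keratins of airway basal cells were low and uneven, and not all in 1 direction. Krt15, the 1 tested keratin with a log2 fold change above 0 as labelled (0.74, limma adjusted p = 0.589), stood at 0.40 to 3.39 in knockout and 0.104 to 1.465 in wild type libraries. Krt17 stood at 0 to 0.928 in knockout libraries, against 7.46 and 11.04 in wild type 2 and 3 and 0 in wild type 4 to 6. Krt14 stood at 0 to 0.110 in knockout, against 2.62 and 2.06 in wild type 2 and 3, and Krt5 at 0.0819 to 1.69 in knockout, against 3.02 and 4.17 there. These 2 wild type libraries belong to the first run, and in the second run Krt17, Krt14 and Krt5 were at or below 1.46 in every library.

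Lgals3 encodes galectin-3, a secreted lectin that binds beta-galactosides and is raised in transitional AT2 cells (chromosome 14, 47367751 to 47386160, plus strand, ENSMUSG00000050335). It stood at 41.3, 35.2, 29.4, 23.5 and 31.0 normalized counts per M in knockout 1 to 5, against 39.7, 38.1, 50.1, 40.0 and 39.1 in wild type 2 to 6. The library labelled knockout 1 lay among the wild type libraries, the other 4 knockout libraries lay below all of them, and wild type 4 was the highest. The means were 32.1 ± 6.65 in knockout and 41.4 ± 4.91 in wild type (SD, n = 5 each), a log2 fold change of -0.38 ± 0.12 (SE; 95% interval -0.64 to -0.12; limma adjusted p = 0.359). In the 8 libraries the means were 29.8 ± 4.85 in knockout and 41.8 ± 5.57 in wild type (SD, n = 4 each), with a log2 fold change of -0.49 ± 0.12 (SE; limma adjusted p = 0.0973).

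Sprr1a, a small proline-rich protein that is cross-linked into the cornified envelope of stratified epithelia, showed the largest log2 fold change of the 10 genes (chromosome 3, 92483952 to 92485895, minus strand, ENSMUSG00000050359). It stood at 0.764, 0.581, 0.271, 1.25 and 0.903 normalized counts per M in knockout 1 to 5, against 1.18, 2.65, 4.79, 2.10 and 2.62 in wild type 2 to 6. Those values correspond to about 3.36 to 14.2 reads in knockout and 10.8 to 42.1 reads in wild type libraries, so that counting error is large. Knockout 4 was just above wild type 2, the only crossing between the groups. The means were 0.753 ± 0.364 in knockout and 2.67 ± 1.33 in wild type (SD, n = 5 each), with a log2 fold change of -1.29 ± 0.30 (SE; 95% interval -1.93 to -0.65; limma adjusted p = 0.314).

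In the 8 libraries Sprr1a averaged 0.751 ± 0.420 in knockout and 3.04 ± 1.19 in wild type (SD, n = 4 each), with a log2 fold change of -1.51 ± 0.31 (SE; limma adjusted p = 0.0427). With 4 of 5 knockout libraries under 1 per M, the gene was tested only because wild type libraries were above it. Fold changes are of log2(value + 0.5), which understates the change of so low a gene. The adjusted p stayed under 0.05 without knockout 4 (limma adjusted p = 0.0207) and not without any of knockout 2, 3 and 5 and wild type 3 to 6 (0.0564 to 0.169). Nor did it with a pseudocount of 0.1 (0.0527), with no filter on low genes (0.212) or with sex as a covariate (log2 fold change -1.12, 0.260). The 2 female knockouts of these 8 libraries had 0.581 and 0.271 and the 2 males 1.25 and 0.903, against male wild type libraries only. The fit with sex thus compares the 2 male knockouts alone with wild type 3 to 6. Of 14 other cornified envelope genes listed, Tgm1, Ivl and Lor had a row. Tgm1, the cross-linking transglutaminase, averaged 14.1 ± 1.74 in knockout and 16.9 ± 3.62 in wild type (SD, n = 5 each), Ivl and Lor stood between 1.41 and 3.93 in all libraries, and none of the 3 was below an unadjusted p of 0.05.

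Cldn4, a tight junction claudin, was the only gene of the 10 with a higher mean log2 level in knockout as labelled (chromosome 5, 134945119 to 134946934, minus strand, ENSMUSG00000047501). It stood at 5.67, 9.71, 6.48, 2.63 and 5.39 normalized counts per M in knockout 1 to 5, against 4.52, 3.08, 4.16, 4.07 and 3.89 in wild type 2 to 6. Knockout 4 was the lowest of all libraries, while the other 4 knockout libraries lay above every wild type library. The log2 fold change was 0.45 ± 0.24 (SE; 95% interval -0.05 to 0.96; limma adjusted p = 0.572) and 0.49 in the 8 libraries (limma adjusted p = 0.447). As labelled it was 0.27 without knockout 2 and 0.69 without knockout 4, and in the 8 libraries 0.24 without knockout 2 and 0.81 without knockout 4. Fitted with sex as a covariate, the log2 fold change was 0.34 as labelled and 0.0063 in the 8 libraries. Among those 8 libraries only knockout 2 and 3 are female. That fit thus compares knockout 4 and 5 alone with wild type 3 to 6, and sex cannot be told apart from these 2 libraries.

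Sfn, Cdkn1a and Itgb6 had overlapping groups. Sfn encodes 14-3-3 sigma, a p53-induced adaptor (chromosome 4, 133600556 to 133602168, minus strand, ENSMUSG00000047281), and it averaged 24.6 ± 5.04 normalized counts per M in knockout and 28.4 ± 4.73 in wild type (SD, n = 5 each; log2 fold change -0.21, 95% interval -0.49 to 0.07, limma adjusted p = 0.630). Cdkn1a encodes the cell cycle inhibitor p21, another p53 target (chromosome 17, 29090976 to 29100727, plus strand, ENSMUSG00000023067). It averaged 31.9 ± 6.80 in knockout and 31.7 ± 3.08 in wild type (SD, n = 5 each; log2 fold change -0.01, 95% interval -0.27 to 0.25, limma adjusted p = 0.985). Its knockout libraries were split, with 38.3 and 40.1 in knockout 2 and 5 and 25.0 to 28.3 in the other 3. Itgb6 encodes the beta-6 subunit of the integrin that activates latent TGF-beta (chromosome 2, 60598292 to 60722643, minus strand, ENSMUSG00000026971). It averaged 14.0 ± 3.95 in knockout and 14.2 ± 2.90 in wild type (SD, n = 5 each; log2 fold change -0.05, 95% interval -0.42 to 0.33, limma adjusted p = 0.951). Over the 8 libraries the log2 fold changes were -0.15 for Sfn (limma adjusted p = 0.684), 0.12 for Cdkn1a (0.723) and 0.15 for Itgb6 (0.738), so that those of Cdkn1a and Itgb6 had the opposite sign.

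**Figure D3:**
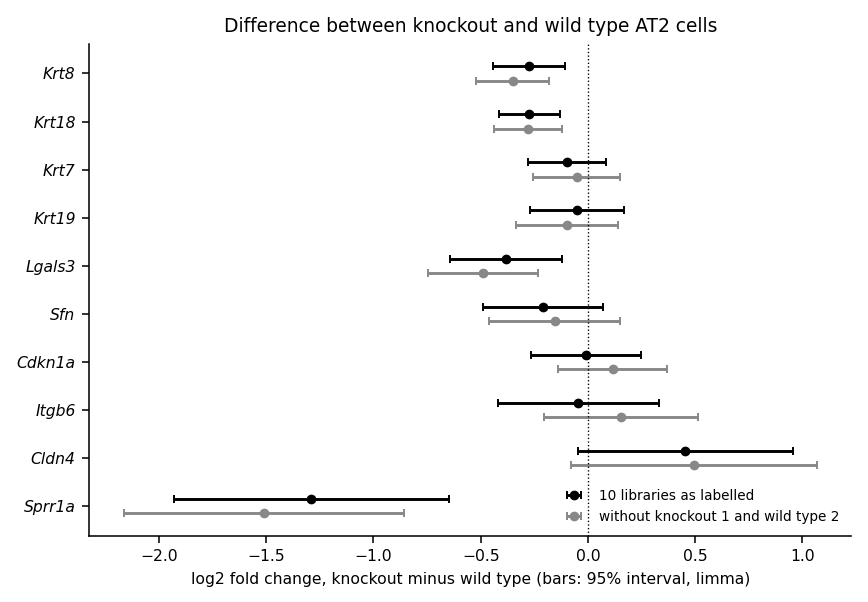
Log2 fold change, knockout minus wild type, of each gene with its 95% interval from limma, for the 10 libraries as labelled (black) and the 8 libraries without knockout 1 and wild type 2 (grey). The intervals of Krt8, Krt18, Lgals3 and Sprr1a lie below 0 in both sets, and those of the other 6 genes include 0.

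The difference between knockout and wild type was also computed within each run of mouse numbers. In the second run, which holds neither of the 2 doubtful libraries, the log2 fold change was -0.43 for Krt8, -0.66 for Lgals3, -0.25 for Krt19 and -0.08 for Cldn4. In the first run it was -0.12 for Krt8, -0.15 for Lgals3, 0.18 for Krt19 and 0.84 for Cldn4. The first run holds both doubtful libraries and all the female mice, so run, label and sex cannot be told apart in this comparison. The difference between the runs was below an unadjusted p of 0.05 for Krt19 (0.0305), Lgals3 (0.0338) and Cldn4 (0.0356), as it was for 5.92% of all genes, and the adjusted p was 0.812 or above for all 10 genes (limma, run by genotype interaction, which 0.0154% of all genes passed). Krt18, at -0.33 in the second run and -0.22 in the first, and Sprr1a, at -1.16 and -1.18, were closer between the runs. No gene of the 10 passed within either run alone.

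Exon length moved with the direction of the differences in the whole table. The median log2 fold change was -0.08 for genes with at most 1500 exon bases, of which 65.5% were lower in knockout, and 0.06 for those over 5000 bases, of which 33.0% were lower; in the 8 libraries the medians were -0.09 and 0.06. The 4 genes below an unadjusted p of 0.05 are short, with 806 exon bases for Sprr1a, 1437 for Krt18, 1858 for Lgals3 and 1958 for Krt8. Sfn (1613), Cldn4 (1816) and Krt19 (1855) are as short as Lgals3 and Krt8 and were not below that p, and Cldn4 was higher in knockout. Cdkn1a, Krt7 and Itgb6 are longer. In the 2 shortest length classes 6.76% (at most 1500 bases) and 5.31% (1500 to 2500 bases) of genes were lower at an unadjusted p under 0.05, against 3.28% of all genes. After each library's trend with length was removed, an alternative added after the data were seen, the log2 fold changes were -0.24 for Krt8, -0.22 for Krt18, -0.34 for Lgals3 and -1.20 for Sprr1a. In the 8 libraries Sprr1a then stood at -1.42 and no longer passed (limma adjusted p = 0.0507).

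Across the 10 libraries the levels of Krt8, Krt18 and Lgals3 varied together. The correlation of log2 levels between Krt8 and Lgals3 was r = 0.91 (permutation p = 0.00019, adjusted over 45 pairs 0.00855) with rho = 0.83 (adjusted 0.0699). It was 0.84 after the group means were removed and 0.73 without knockout 4 and wild type 4, the libraries farthest from the median of Krt8. Krt18 and Lgals3 had r = 0.88 (permutation p = 0.00041, adjusted 0.00922) and Krt8 and Krt18 had r = 0.85 (permutation p = 0.00171, adjusted 0.0257), with 0.80 and 0.61 after the group means were removed. The fourth pair to pass was Krt7 with Itgb6 (r = 0.74, permutation p = 0.00326, adjusted 0.0367; rho = 0.78), which are the 2 longest of the 10 genes. Of the 45 pairs 38 had a positive r (median 0.40), and no pair passed by rho after adjustment. The same shares over pairs of all genes were not computed, so these values are not a trait of the 10 genes. The p53 targets Sfn and Cdkn1a had r = 0.76 (adjusted 0.1001) and Cldn4 with Sprr1a had r = -0.63 (adjusted 0.247). Libraries share their depth and normalization across genes, and each run holds 5 libraries, too few for a correlation within it.

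**Figure D4:**
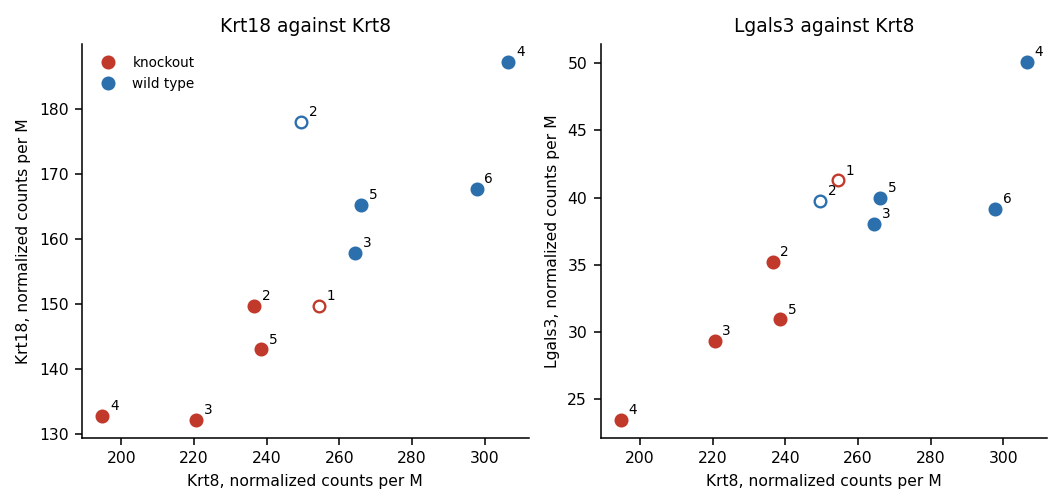
Krt18 (left panel) and Lgals3 (right panel) against Krt8, in normalized counts per M, for each library, numbered by replicate, in knockout (red) and wild type (blue), with open circles for knockout 1 and wild type 2. Knockout 4 is lowest in Krt8 and Lgals3 and wild type 4 is highest in all 3 genes.

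Likeness across the 10 libraries was also measured over all tested genes, as the root mean square difference of mean-centred log2 levels, as a description with no test. The genes most like Krt8 were Fbxo36 (0.0789), Tagln2, an actin-binding transgelin (0.0817), Babam2 (0.0863), Pdlim1 (0.0868) and Gm14569 (0.0903). Krt18 had rank 11 (0.0967) and Lgals3 rank 303 (0.141), and Krt8 itself had a spread of 0.184 around its mean. Those 5 nearest genes had r of 0.87 (Gm14569) to 0.92 (Tagln2) with Krt8, beside 0.85 for Krt18 and 0.91 for Lgals3. For Lgals3, with a spread of 0.286, they were Mrps6 (0.107), Mpp6 (0.111), Mettl2 (0.124), C1qtnf4 (0.128) and Bola3 (0.136), with Krt8 at rank 7 and Krt18 at rank 24. For Cdkn1a, with a spread of 0.207, they were Gtf2f1 (0.102), Mall (0.106), Shmt2 (0.107), Mad2l1bp (0.113) and Sgms2 (0.115), and Sfn had rank 161. For Sprr1a, with a spread of 0.798, the nearest were Mok (0.470), 4930515G01Rik (0.476), Pifo (0.4995), Hist1h2bc (0.5003) and Haus1 (0.504), differences that grow with the larger spread of Sprr1a; its correlation with Haus1 was r = 0.96.

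Other genes of the transitional state were taken from a list of 18, of which 16 were tested. As labelled, 14 had a log2 fold change below 0 and 2 above (median -0.19), where 48.7% of all genes were below 0. At an unadjusted p under 0.05, 4 were lower, as were 3.28% of all genes, and none passed adjustment. In the 8 libraries 13 were below 0 and 3 above (median -0.16), and 5 were lower and 1 higher at an unadjusted p under 0.05, where 5.25% of all genes were lower. Of the 16 only Areg passed there, as did 0.402% of all genes. Areg, which encodes the epidermal growth factor receptor ligand amphiregulin, averaged 10.9 ± 3.08 normalized counts per M in knockout and 19.9 ± 4.53 in wild type (SD, n = 5 each), with wild type 2 at 12.9 inside the knockout range. Its log2 fold change was -0.86 ± 0.19 (SE; limma adjusted p = 0.289) as labelled and it fell by 1.06 ± 0.18 (SE; limma adjusted p = 0.0107) in the 8 libraries. Anxa1 and Anxa2, annexins that bind phospholipid membranes, averaged 68.0 and 386 in knockout and 88.6 and 444 in wild type, with log2 fold changes of -0.37 and -0.20. Ccn2, a matricellular protein induced through YAP and TGF-beta, averaged 2.996 in knockout and 4.41 in wild type (log2 fold change -0.53). None of Anxa1, Anxa2 and Ccn2 passed in either set.

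Lists of p53 targets and of genes around integrin alphavbeta6 had medians near 0. Of 14 p53 targets tested 6 were below 0 and 8 above as labelled (median 0.07), and none passed in either set of libraries. Sesn2, a stress-induced inhibitor of mTORC1 signalling, had the smallest p among them, at 46.8 ± 7.42 in knockout and 36.3 ± 5.83 in wild type (SD, n = 5 each; log2 fold change 0.36, limma adjusted p = 0.359; 0.44 and 0.163 in the 8 libraries). Of 13 genes of the integrin alphavbeta6 and TGF-beta list 3 were below 0 and 10 above (median 0.05), where 48.7% of all genes were below 0, and none passed. Itgav, the alpha subunit that pairs with Itgb6, averaged 72.1 ± 6.02 in knockout and 61.8 ± 3.92 in wild type (SD, n = 5 each; log2 fold change 0.22, limma adjusted p = 0.371; 0.28 and 0.163 in the 8 libraries).

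Of 12 tested genes that anchor keratin filaments, 9 were above 0 and 3 below (median 0.09), and none passed. Below 0 as labelled were 48.7% of all genes. The part of the trend with exon length in these values was not tested. Ppl, the desmosomal plakin periplakin, stood at 177 to 202 normalized counts per M in knockout and 138 to 168 in wild type. Its groups did not overlap, as was so for 1.59% of all genes in either direction. Its log2 fold change was 0.33 ± 0.07 as labelled (SE, limma adjusted p = 0.289) and 0.29 in the 8 libraries (limma adjusted p = 0.143). Dst and Plec, plakins that link keratins to hemidesmosomes and other structures, had log2 fold changes of 0.43 and 0.20, with limma adjusted p of 0.359 and 0.418, and of 0.33 and 0.22 in the 8 libraries.

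Markers of other cell types were set beside these values. AT1 markers summed to 3394 to 3992 in knockout and 3548 to 4123 in wild type libraries. As labelled 12 of 16 AT1 markers were below 0 and 4 above (median -0.15), with 1 lower and 1 higher at an unadjusted p under 0.05. Of all genes 3.28% were lower at that level and 9.48% differed in either direction. In the 8 libraries 12 AT1 markers were again below 0 (median -0.19), with 5 lower and 2 higher at an unadjusted p under 0.05. There 5.25% of all genes were lower and 13.1% differed in either direction. No AT1 marker passed in either set. Lmo7, a LIM domain protein and the AT1 marker with the smallest p as labelled, averaged 204.1 ± 28.2 in knockout and 178 ± 10.4 in wild type (SD, n = 5 each; log2 fold change 0.19, limma adjusted p = 0.503). Hopx, a transcription cofactor of AT1 cells, averaged 42.1 ± 8.79 in knockout and 53.2 ± 13.8 in wild type, and the water channel Aqp5 averaged 422 ± 52.3 in knockout and 465 ± 9.04 in wild type (SD, n = 5 each). AT2 markers summed to 229000 to 265700 in knockout and 230400 to 276800 in wild type libraries, and 10 of 14 were below 0 (median -0.05).

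Club cell markers summed to 5176 to 9648 in knockout and 4950 to 9705 in wild type libraries. Of the 8 club markers 6 were above 0 and 2 below as labelled (median 0.14), and 4 were above and 4 below in the 8 libraries (median 0.06). None passed, and Muc5b had log2 fold changes of 0.68 (limma adjusted p = 0.484) and 0.73 (0.296). Ciliated cell markers summed to 186.8 to 274 in knockout and 177 to 322 in wild type. Of the 8 ciliated markers 5 were below 0 as labelled (median -0.04) and 7 in the 8 libraries (median -0.15). There Tppp3, Cfap126 and Tekt1 were lower at an unadjusted p under 0.05 (log2 fold changes -0.33, -0.41 and -0.42), as were 5.25% of all genes, and none passed. Basal cell markers summed to 0.566 to 6.51 in knockout and 1.56 to 8.65 in wild type. Of 8 fibroblast and smooth muscle markers 5 were tested, all with a log2 fold change below 0 (median -0.62) and none passing. As labelled 3 of these were lower at an unadjusted p under 0.05, as were 3.28% of all genes. In the 8 libraries 2 were, beside 5.25% of all genes. All 8 markers summed to 2.75 to 8.97 in knockout and 7.06 to 13.8 in wild type. Mesothelial markers summed to 5.26 to 22.9 in knockout and 3.13 to 11.7 in wild type. Msln had a log2 fold change of 1.23 as labelled (limma adjusted p = 0.371). It passed as higher in the 8 libraries (1.53, limma adjusted p = 0.0327), where 0.402% of all genes passed in either direction. The other tested mesothelial marker, Gpm6a, had log2 fold changes of -0.65 as labelled and -0.77 in the 8 libraries (limma adjusted p = 0.398), and Wt1 was at or below 0.112 in every library. Macrophage and monocyte markers summed to 2307 to 3364 in knockout and 1834 to 4187 in wild type. Most of this was Lyz1, a lysozyme that AT2 cells also express. Of 6 tested, 5 were above 0 and 1 below in both sets of libraries. Lyz1 had a log2 fold change of 0.20 as labelled (limma adjusted p = 0.728). It passed in the 8 libraries (0.46, limma adjusted p = 0.0489), as did 0.402% of all genes. Cd68 had 0.43 as labelled (limma adjusted p = 0.588) and 0.78 in the 8 libraries (0.0842). Csf1r stood at 9.67 to 16.5 in knockout and 10.0 to 14.3 in wild type, and Laptm5 at 0.290 to 6.46 and 0.966 to 12.5. Marco and Adgre1 were at or below 1.25 throughout. Cdh5, a defining endothelial gene, was at or below 0.103 in every library, and markers of lymphocytes, neutrophils and red blood cells summed to 0 to 1.77 in knockout and 0 to 2.48 in wild type. The part of these other cells in the differences of Krt8, Krt18, Lgals3 and Sprr1a was not tested.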

How the data were processed

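Per the labels' protocols, sorted AT2 cells were lysed at once and their polyA RNA was sequenced on an Illumina instrument. The authors deposited 1 table of normalized counts, a signal that is never negative and not whole, with 10 columns matched to samples by title. Of tools, bcl2fastq 2.17 and edgeR 3.14.0 are listed by the submitters' processing notes, with mm10 as the build and no role stated. No source used here names the aligner, the annotation, the strand setting or the normalization. All columns were divided by 1 constant, their mean total (7.14 M), and tested with limma-trend (limma 3.58.1, R 4.3.3) on log2(value + 0.5), knockout minus wild type, two-sided, over the 12946 genes that reached 1 per M in 5 or more libraries, with Benjamini-Hochberg adjustment at 0.05. Intervals are 95%. Fold changes on this scale understate the change of low genes, and values under about 1 per M rest on few reads. Rbck1 had an exact permutation test, correlations 100000 permutations. Coordinates are from GENCODE M21 (mm10). Symbols were found for 16026 IDs. Alternatives were other pseudocounts (0.1 and 2), filters (none, 5 per M), scalings (trimmed mean of M values, median ratios, equal totals), covariates (replicate number, run, sex), sample weights and library sets. The fit was checked on simulated data.

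The 10 genes, the lists and the set of 8 libraries were chosen with earlier results of these data known. Besides the 10 genes and Rbck1, up to 4 genes with the smallest p of each list in each library set could be named, together with keratins averaging 1 per M or more, the 5 genes most like Krt8, Cdkn1a, Lgals3 and Sprr1a, and defining markers; Krt14 and Krt17 were named after their values were seen. Each library has a mouse number of its own, but whether p-values measure more than the spread between these samples depends on the mice being independent, which the labels do not state.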

Additional observations from a re-analysis of the deposited data

Results flagged for a closer look

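In 3 of the 22 groups of 5 libraries that were examined, 1 library stood far from the other 4, where chance alone does so in about 5% of groups. Krt7 stood at 120 normalized counts per M in the library labelled wild type 2 and at 103 to 108 in the other wild type libraries. Lgals3 stood at 50.1 in wild type 4 and at 38.1 to 40.0 in the other wild type libraries. Rbck1 stood at 29.7 in the library labelled wild type 2 and at 56.1 to 57.8 in the other wild type libraries, so that 2 of the 3 concern the same library. That Rbck1 value is the one by which the library had already been set apart, so it adds no separate mark against it.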

How the results depend on the processing

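Of the values of the 10 genes under other settings, 413 kept their direction and their side of the threshold, 12 lost a call, 4 gained one and 27 changed sign, and the cause was not tested. With 10 libraries, 0 genes passed, against 1 with run as a covariate, 41 in the second run alone, 52 without the 2 doubtful libraries and 0 to 4 when 1 library was left out (4 without knockout 1). Of the 10 genes 0 passed, against 1 without the 2 libraries, and 0 when any 1 was left out. With 8 libraries, 52 genes passed, against 10 with no filter, 27 with sex as a covariate and 19 to 100 when 1 library was left out (19 without wild type 5, 26 without wild type 4, 32 without knockout 3, 84 without knockout 4 and 100 without wild type 6). Sprr1a was the 1 gene of the 10 that passed, and 0 did so with a pseudocount of 0.1, no filter, a filter at 5 per M (which removes Sprr1a and Cldn4), sex as a covariate, the second run alone or the length trend removed; leaving out 1 library gave 0 to 1.

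The replicate number was not taken as pairing the samples, since same-numbered libraries correlated in their deviations from the group means at 0.31, 0.03, 0.10 and 0.08 for numbers 2 to 5. With it as a replicate block, 261 genes passed with 10 libraries, among them Krt18 (limma adjusted p = 0.0481) and Sprr1a (0.0498), so that 2 of the 10 genes did. With 8 libraries 397 genes passed, and again 2 of the 10, Sprr1a (0.0321) and Lgals3 (log2 fold change -0.60, 0.0316).

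Log2 fold changes of 4 genes changed sign in some setting other than leaving out 1 library. Krt19 stood at 0.18 in the first run alone and Cldn4 at -0.080 in the second run alone. Cdkn1a stood at 0.016 with equal totals, 0.041 with the block, 0.013 with sample weights and 0.12 both without the 2 libraries and in the second run. Itgb6 stood at 0.033 with the block, 0.059 with sample weights, 0.15 without the 2 libraries and 0.066 in the first run, and, set against the 8 libraries, at -0.11 with sex as a covariate and -0.21 in the second run. Cldn4 in the 8 libraries was 0.0063 with sex as a covariate. Every fit of the 8 libraries with that covariate compares the male knockout libraries alone with wild type. When 1 library was left out, Krt19 ranged from -0.10 to 0.033, Cdkn1a from -0.10 to 0.071, Itgb6 from -0.15 to 0.066, Cldn4 from 0.27 to 0.69 and Sfn from -0.31 to -0.12 with 10 libraries, Krt7 from -0.12 to 0.052, Krt19 from -0.16 to 0.014 and Cldn4 from 0.24 to 0.81 with 8, and Rbck1 from -0.52 to -0.24, against -0.67 without the 2 libraries. The scalings moved the median of all genes to at most 0.04. Depth limits Sprr1a most, since its knockout values rest on 3.36 to 14.2 reads.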
